A study of Mus musculus with 22 samples.

Results

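The 9 kinases described here are Lck, Lyn, Fgr, Src, Fyn and Yes1 of the Src family, the ITAM-binding kinase Syk, the TEC-family kinase Btk, and Csk, which holds Src-family kinases inactive. Their transcripts were read on arrays of bone marrow-derived macrophages (BMDM), that is, mouse marrow cells matured into macrophages by M-CSF, which was withdrawn before the experiment. The set was chosen by the Lck signal, which was high in LPS-treated BMDM lacking both MK2 and MK3, so that elevation is given as a description and was not tested. Members were found through the RefSeq accession of each array probe, which gave 10 probes for the 9 genes out of 55681 non-control probes: 2 for Btk and 1 for each other gene. The Yes1 probe was well above background on 2 of 22 arrays and was not tested. Each of the other 9 probes was well above background on all 22 arrays, and the brighter Btk probe stood for its gene.

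All cells came from mice labelled C57BL/6, of 10 to 14 weeks, and the methods give C57BL/6J as the background of the deleted genotypes. Wild-type (wt) BMDM had both MK2 and MK3, kinases activated by the stress kinase p38. MK2-/- BMDM lacked MK2, and MK2/3-/- BMDM lacked MK2 and MK3, in each case through deletion in the whole animal and not in macrophages alone. BMDM lacking MK3 alone were not analysed here. Cells were kept for 360 min in medium alone or with lipopolysaccharide (LPS, 100 ng per ml), a Gram-negative bacterial product that activates Toll-like receptor 4. The groups held 3 LPS-treated and 4 medium-treated wt arrays, 4 and 4 MK2-/- arrays, and 4 LPS-treated and 3 medium-treated MK2/3-/- arrays. The methods speak of independent experiments, but the labels do not say which arrays came from the same animal, so p-values measure the spread between these arrays.

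Src-family kinases sit at the inner face of the plasma membrane and phosphorylate tyrosines in the ITAM motifs of immune receptor chains. Syk, and ZAP-70 in T cells, bind the phosphorylated ITAMs and pass the signal on to adaptors, phospholipase C and the TEC-family kinases. Csk phosphorylates an inhibitory tyrosine near the C terminus of Src-family kinases, and phosphatases such as CD45 remove that phosphate. Lck is best known as the kinase that starts T cell receptor signalling, whereas Fgr and Lyn are Src-family kinases known from myeloid cells. In a bulk culture, a change in the number of cells of one type cannot be told apart from a change in RNA per cell.

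Values are log2 of the processed array signal after quantile normalisation. Differences are on the same log2 scale, where 1 is a doubling. Genes were called at an adjusted p below 0.05 over 22383 genes. Some groups had 0 arrays with a given probe well above background. A called difference from such a group is written as at least so many fold, except for Cd3d. The dim group then enters with, on each array, the larger of its own signal and the lowest signal that was well above background there. Signals of different probes were not compared with each other, because probes differ in how strongly they hybridise.

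Median processed signals lay between 32.7 and 108 over the arrays, and the share of probes well above background between 61.1% and 82.7%. The lowest median signals, 32.7 and 41.9, were those of LPS-treated wt replicates 2 and 3. Each genotype had a slide of its own, so slide and genotype cannot be told apart in direct comparisons of genotypes, while both treatments of a genotype were on its slide. The wt slide was scanned on another day than the slides of the deleted genotypes, so scan day cannot be told apart from genotype in comparisons with wt. The deleted genes were checked first. Mapkapk2, which encodes MK2, lay between 8.34 and 11.94 on all arrays of both deleted genotypes. In wt BMDM it lay between 10.78 and 12.42 in medium and between 14.32 and 15.42 with LPS, above every array of the deleted genotypes under the same treatment. Mapkapk3, which encodes MK3, lay between 7.64 and 11.40 in MK2/3-/- BMDM and between 11.93 and 13.40 on all other arrays. Where these probes lie relative to the deleted parts of the genes was not analysed here. Replicate 3 of the LPS-treated and of the medium-treated MK2-/- BMDM had a mean Y-linked signal of 2.10 and 2.27, against 6.55 to 8.33 elsewhere, although all mice were labelled male. The same LPS-treated array had 2927 spots marked as outliers, against 115 to 261 on the other arrays. Medium-treated wt replicate 4 had LPS-induced genes 0.32 above the rest of its group. Calls of members that changed without these arrays are named beside the values of Fgr, Csk and Src.

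The sequences upstream of 3 members are shown because their levels differ between genotypes in the results below. They are the 250 bases before the RefSeq transcription start, 5′ to 3′, on the assembly GRCm38.p6. For Lck, the upstream start site is known from T cells as the distal promoter and the downstream one as the proximal promoter.
Lck, upstream start site (chr4:129573642-129573891, strand minus): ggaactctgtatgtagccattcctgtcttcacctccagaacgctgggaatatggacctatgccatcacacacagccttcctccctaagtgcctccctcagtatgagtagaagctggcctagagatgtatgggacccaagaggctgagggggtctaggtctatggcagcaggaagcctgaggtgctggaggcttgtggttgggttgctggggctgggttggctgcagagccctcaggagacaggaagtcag
Lck, downstream start site (chr4:129558373-129558622, strand minus): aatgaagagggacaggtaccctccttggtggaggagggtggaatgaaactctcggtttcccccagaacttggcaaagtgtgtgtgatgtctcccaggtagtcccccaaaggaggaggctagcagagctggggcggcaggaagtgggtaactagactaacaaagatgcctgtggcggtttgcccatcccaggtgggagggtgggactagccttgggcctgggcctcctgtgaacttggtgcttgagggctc
Fgr (chr4:132973845-132974094, strand plus): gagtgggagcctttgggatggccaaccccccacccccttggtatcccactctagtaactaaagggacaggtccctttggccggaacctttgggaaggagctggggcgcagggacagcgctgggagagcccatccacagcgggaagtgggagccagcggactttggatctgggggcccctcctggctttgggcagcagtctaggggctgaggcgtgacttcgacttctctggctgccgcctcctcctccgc
Src (chr2:157424043-157424292, strand plus): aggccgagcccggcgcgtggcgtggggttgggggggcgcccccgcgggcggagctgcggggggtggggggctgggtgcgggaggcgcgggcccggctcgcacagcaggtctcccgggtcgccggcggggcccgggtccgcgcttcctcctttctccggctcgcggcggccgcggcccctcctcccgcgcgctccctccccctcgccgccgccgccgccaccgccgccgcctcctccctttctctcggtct

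The array has a single Lck probe and does not tell which start site was used. Promoters of 300 bases, 250 before and 50 after the start, were listed for 8 of the 9 members, 11 promoters in all, and none was listed for Lyn. They were searched on both strands for the letters of a kappaB motif, an interferon-response element core and an AP-1 motif (TGANTCA), the kinds of sites bound by factors that LPS signalling activates. The kappaB letters occurred in 1 of the 11 promoters, that of Yes1, at 38 to 47 bases after the start, compared with 1.2% of 32851 promoters of the same length. The interferon-response core occurred in 0 of the 11 and in 3.44% of all promoters, and the AP-1 letters in 0 of the 11 and in 7.81% of all. No motif therefore falls in the sequences printed above, which are in lower case throughout. Promoters of Lck were 58.3% and 57.3% G and C, that of Fgr 62.7% and that of Src 82.3%.

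Lck rose with LPS in wt and MK2-/- BMDM by about the same amount, and its signal in LPS-treated MK2/3-/- BMDM lay above that of every other array. In medium, Lck read 8.07, 7.83, 8.13 and 8.58 on the 4 wt arrays, 8.28, 8.71, 8.39 and 8.20 on the 4 MK2-/- arrays, and 8.22, 7.90 and 7.97 on the 3 MK2/3-/- arrays. These medium levels overlapped between all genotypes. With LPS, Lck read 10.68, 10.80 and 10.92 in wt BMDM and 10.88, 11.28, 10.70 and 11.73 in MK2-/- BMDM. The LPS-treated arrays of wt and MK2-/- overlapped each other and lay above all medium arrays. In LPS-treated MK2/3-/- BMDM, Lck read 13.60, 13.17, 12.65 and 13.81, the values for which the gene was chosen. All 4 arrays lay above the highest LPS-treated MK2-/- array.

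**Figure D1:**
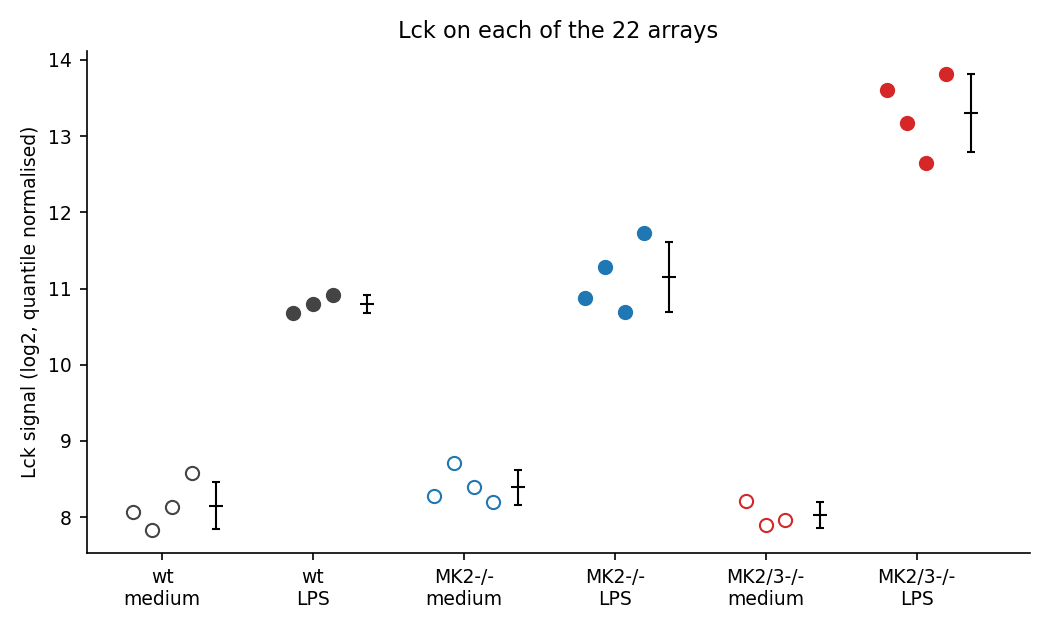
Log2 signal of the Lck probe on each of the 22 arrays (y axis, quantile normalised), by genotype and treatment (x axis). Open circles are medium and filled circles LPS, and the black bar beside each group is its mean and SD. The 4 LPS-treated MK2/3-/- arrays sit between 12.65 and 13.81, above the other LPS-treated arrays at 10.68 to 11.73.

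The group means of Lck, from lowest to highest, were 8.03 ± 0.17 (SD, n = 3) in medium-treated MK2/3-/- BMDM, 8.15 ± 0.31 (SD, n = 4) in medium-treated wt, 8.39 ± 0.23 (SD, n = 4) in medium-treated MK2-/-, 10.80 ± 0.12 (SD, n = 3) in LPS-treated wt, 11.15 ± 0.46 (SD, n = 4) in LPS-treated MK2-/- and 13.31 ± 0.51 (SD, n = 4) in LPS-treated MK2/3-/- BMDM. The 3 medium groups did not differ beyond their spread, nor did the LPS-treated wt and MK2-/- groups. The LPS response was 2.64 (SE 0.27, 6.25-fold, limma adjusted p = 2.54e-07) in wt and 2.75 (SE 0.25, 6.74-fold, limma adjusted p = 2.78e-08) in MK2-/- BMDM. The gap between these responses was 0.11, with a 95% interval of -0.66 to 0.88 and an adjusted p of 0.967 in limma. MK2-/- exceeded wt BMDM under LPS by 0.35 (95% interval -0.21 to 0.91, limma adjusted p = 0.403). In medium, limma gave adjusted p-values of 0.568 for MK2-/- against wt, 0.855 for MK2/3-/- against wt and 0.591 for MK2/3-/- against MK2-/- BMDM. These p-values do not show that the levels are equal.

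As a description of the values that chose the gene, Lck in MK2/3-/- BMDM was 5.28 higher with LPS than in medium, a 38.9-fold ratio. Under LPS it was 2.51 above wt (5.70-fold) and 2.16 above MK2-/- BMDM (4.47-fold). Over the alternatives run, the first value ranged from 4.92 to 5.50, the second from 2.34 to 2.73 and the third from 1.99 to 2.38. With single arrays left out, the excess of the LPS response over wt ranged from 2.47 to 2.86, and that over MK2-/- from 2.36 to 2.75. Because the gene was chosen by these arrays, the ranges describe its values and do not test the excess. Each LPS response compares arrays of 1 slide.

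Lck is a T cell kinase, so the 23 listed markers of T cells and NK cells were read on the same arrays. Their summed linear signal ranged from 4775 to 8051 in LPS-treated and from 4773 to 7854 in medium-treated MK2/3-/- BMDM. It ranged from 3991 to 4893 in LPS-treated wt, from 5242 to 7381 in LPS-treated MK2-/-, from 4135 to 6688 in medium-treated wt and from 4861 to 9642 in medium-treated MK2-/- BMDM. The range in LPS-treated MK2/3-/- BMDM overlapped that of every other group, but a sum of linear signals is weighted towards the brightest probes. With LPS, 4 of the 21 tested rose and 2 fell in wt, 4 and 2 in MK2-/-, and 7 and 2 in MK2/3-/- BMDM. Of all genes, 18.6%, 17.7% and 20.3% rose and 23.2%, 26.7% and 27.5% fell. Median LPS differences of the markers were 0.38, 0.23 and 0.74, and those of all genes -0.04, -0.002 and 0.02. Limma called 0 of the 21 for a difference in LPS response between genotypes. Few genes of any kind were called there: 0% of all genes for MK2-/- against wt, 0.652% for MK2/3-/- against wt and 0.0536% for MK2/3-/- against MK2-/- BMDM. Of the 23 markers, 14 were well above background on every LPS-treated MK2/3-/- array and 3 on none of them. The CD3 gamma gene Cd3g was well above background on 2 of all 22 arrays and was not tested.

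Against wt under LPS, 5 of the 21 tested T cell and NK cell markers were higher in MK2/3-/- BMDM and 0 lower, while limma called 23.7% of all genes, 9.4% higher and 14.3% lower. The median of the 21 was 0.43, and that of all genes -0.03. The largest were Cd6, a T cell surface receptor, at 1.38 (limma adjusted p = 0.000812) and the costimulatory receptor Cd27 at 1.06 (limma adjusted p = 0.00243). Both were also higher in medium, Cd6 by 1.09 and Cd27 by 0.95, and under LPS in MK2-/- against wt BMDM, by 1.11 and 0.82. Against MK2-/- BMDM under LPS, 4 markers were higher and 1 lower, beside 7.72% and 6.04% of all genes. The median of the markers there was 0.43, and that of all genes -0.07. The higher ones included Cd5 at 1.92 (limma adjusted p = 0.000269) and perforin, Prf1, at 1.34 (limma adjusted p = 0.000195). Cd8a, a coreceptor of cytotoxic T cells, was called higher there (limma adjusted p = 0.0373), but it was well above background on 1 of the 4 LPS-treated MK2-/- arrays, so the size of that difference is uncertain. Cd5 itself fell with LPS, with differences of -1.79 in wt, -2.35 in MK2-/- and -1.04 in MK2/3-/- BMDM.

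The CD3 epsilon gene Cd3e read 10.68 to 11.83 in LPS-treated MK2/3-/- BMDM, 10.76 to 11.31 in LPS-treated wt and 11.61 to 12.07 in LPS-treated MK2-/- BMDM. Its difference between LPS-treated MK2/3-/- and wt BMDM was 0.39 (SE 0.31, limma adjusted p = 0.383). Cd3d ranged from 3.81 to 7.53 in LPS-treated MK2/3-/- BMDM and was well above background on 2 of those 4 arrays. In medium it was not well above background on any of the 3 MK2/3-/- arrays. The rise with LPS called in that genotype (limma adjusted p = 0.0341) came to 2.95-fold under the rule for dim groups, the same as the fitted ratio. It is not a lower bound, because the LPS mean also held arrays not well above background. Cd247, which encodes the zeta chain that Lck phosphorylates in T cells, rose with LPS by 3.62 in wt, 4.71 in MK2-/- and 3.61 in MK2/3-/- BMDM, and in medium it was well above background on 2 of 4, 1 of 4 and 2 of 3 arrays. The costimulatory receptor Cd28 fell, with differences of -3.76, -3.41 and -3.85 in the same order. The part of T cells and NK cells in the Lck values was not tested.

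The 9 macrophage markers with a probe were well above background on every array, and their summed signal ranged from 472010 to 749766 over all groups. Limma called 0 of the 9 in any of the 6 comparisons between genotypes within a treatment. Of all genes, it called 11.6% under LPS and 8.57% in medium for MK2-/- against wt. The shares were 23.7% and 1.95% for MK2/3-/- against wt, and 13.8% and 2.82% for MK2/3-/- against MK2-/- BMDM. A count of 0 does not show that the levels are equal.

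Among the 7 tested members other than Lck, LPS raised Lyn, Src, Fyn and Syk in all 3 genotypes and Fgr in wt and MK2-/- BMDM. In wt BMDM, 5 of 7 rose and 0 fell, against 41.8% of all genes called, 18.6% higher and 23.2% lower. In MK2-/- BMDM, 5 rose and Btk fell, against 44.4% called, 17.7% higher and 26.7% lower. In MK2/3-/- BMDM, 4 rose and 0 fell, against 47.8% called, 20.3% higher and 27.5% lower. The median difference of the 7 members was 1.28, 1.69 and 1.57 in the 3 genotypes, while that of all genes was -0.04, 0.00 and 0.02.

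Lyn, which phosphorylates both activating and inhibitory receptor motifs in myeloid and B cells, read 9.45 to 10.32 in medium-treated wt, 8.62 to 9.59 in MK2-/- and 9.42 to 10.16 in MK2/3-/- BMDM. With LPS it read 11.76 to 12.34, 12.12 to 12.66 and 12.27 to 12.99. Medium and LPS arrays did not overlap in any genotype. Lyn rose by 2.39 (SE 0.28, 5.24-fold, limma adjusted p = 1.45e-06) in wt, 3.14 (SE 0.26, 8.83-fold, limma adjusted p = 8.33e-09) in MK2-/- and 2.86 (SE 0.28, 7.26-fold, limma adjusted p = 8.38e-08) in MK2/3-/- BMDM.

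Src, the prototype of the family, read 4.80 to 5.56 in medium-treated wt, 5.28 to 5.76 in MK2-/- and 4.14 to 5.04 in MK2/3-/- BMDM. With LPS it read 7.44 to 7.78, 7.06 to 7.61 and 6.15 to 7.10, again with no overlap between treatments. The rise was 2.33 (SE 0.25, 5.04-fold, limma adjusted p = 5.36e-07) in wt, 1.80 (SE 0.23, 3.48-fold, limma adjusted p = 2.93e-06) in MK2-/- and 2.06 (SE 0.25, 4.17-fold, limma adjusted p = 1.39e-06) in MK2/3-/- BMDM. With normexp background correction the rises of Src were smaller, at 1.29, 1.03 and 0.91, and were still called.

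Fyn, a broadly expressed family member also used by T cells, rose by 1.28 (SE 0.30, 2.42-fold, limma adjusted p = 0.00187) in wt, 1.80 (SE 0.27, 3.49-fold, limma adjusted p = 2.05e-05) in MK2-/- and 1.94 (SE 0.30, 3.84-fold, limma adjusted p = 2.07e-05) in MK2/3-/- BMDM. Its arrays lay between 8.58 and 9.83 in medium and between 10.32 and 11.74 with LPS over all genotypes. All LPS-treated arrays were above all medium arrays.

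Syk, the kinase that ITAM receptors of macrophages depend on, read 12.96 to 14.00 on the medium arrays and 14.21 to 15.61 on the LPS arrays of the 3 genotypes, which did not overlap. It rose by 1.30 (SE 0.27, 2.47-fold, limma adjusted p = 0.000799) in wt, 1.69 (SE 0.25, 3.22-fold, limma adjusted p = 1.82e-05) in MK2-/- and 1.57 (SE 0.27, 2.96-fold, limma adjusted p = 9.24e-05) in MK2/3-/- BMDM.

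Fgr, a Src-family kinase of myeloid cells, was called with LPS in wt and MK2-/- but not in MK2/3-/- BMDM. No difference in its LPS response between genotypes was called. In wt BMDM it read 8.79, 8.53, 8.21 and 8.41 in medium and 10.28, 9.81 and 9.14 with LPS. In MK2-/- BMDM it read 9.12, 8.72, 8.12 and 8.62 in medium and 9.13, 10.28, 9.01 and 9.89 with LPS. In MK2/3-/- BMDM it read 8.67, 8.81 and 7.99 in medium and 7.64, 8.99, 7.69 and 8.88 with LPS. The treatments were apart in wt, overlapped at 1 array in MK2-/- and overlapped throughout in MK2/3-/- BMDM. Fgr rose by 1.26 (SE 0.39, 2.39-fold, limma adjusted p = 0.0137) in wt and by 0.93 (SE 0.36, 1.91-fold, limma adjusted p = 0.0420) in MK2-/- BMDM. In MK2/3-/- BMDM the difference was -0.19, with a 95% interval of -1.0 to 0.63 and a limma adjusted p of 0.734. The wt call was lost without LPS-treated wt replicate 1 (0.99, adjusted p = 0.0751). The MK2-/- call was lost in 12 of 38 alternatives, among them leaving out both arrays with low Y-linked signal (0.95, adjusted p = 0.0702), LPS-treated replicate 2 or 4, or medium-treated replicate 2, 3 or 4, over which the difference ranged from 0.70 to 0.96.

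Btk, which lies downstream of Syk and is best known from the B cell receptor, had 2 probes. The brighter one read 12.16 to 12.50 in medium-treated wt, 12.10 to 12.33 in MK2-/- and 12.18 to 12.32 in MK2/3-/- BMDM, and 11.91 to 12.10, 11.43 to 11.80 and 11.71 to 12.22 with LPS. It fell by 0.55 (SE 0.14, limma adjusted p = 0.00275) in MK2-/- BMDM, and the differences were -0.29 in wt (limma adjusted p = 0.126) and -0.25 in MK2/3-/- BMDM (limma adjusted p = 0.176). The dimmer probe gave -0.12, -0.41 and 0.01 in wt, MK2-/- and MK2/3-/- BMDM, called in MK2-/- BMDM over all 28103 kept probes (limma adjusted p = 0.0394).

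Csk, the kinase that restrains the family, gave LPS differences of -0.42 (limma adjusted p = 0.268) in wt, -0.23 (limma adjusted p = 0.533) in MK2-/- and -0.28 (limma adjusted p = 0.475) in MK2/3-/- BMDM, with 95% intervals that reached from -1.03 to 0.34. Yes1 was well above background on 1 medium-treated wt array, at 5.19, and 1 LPS-treated wt array, at 4.84. On the other 20 arrays it read 1.99 to 3.97 and was not well above background.

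**Figure D2:**
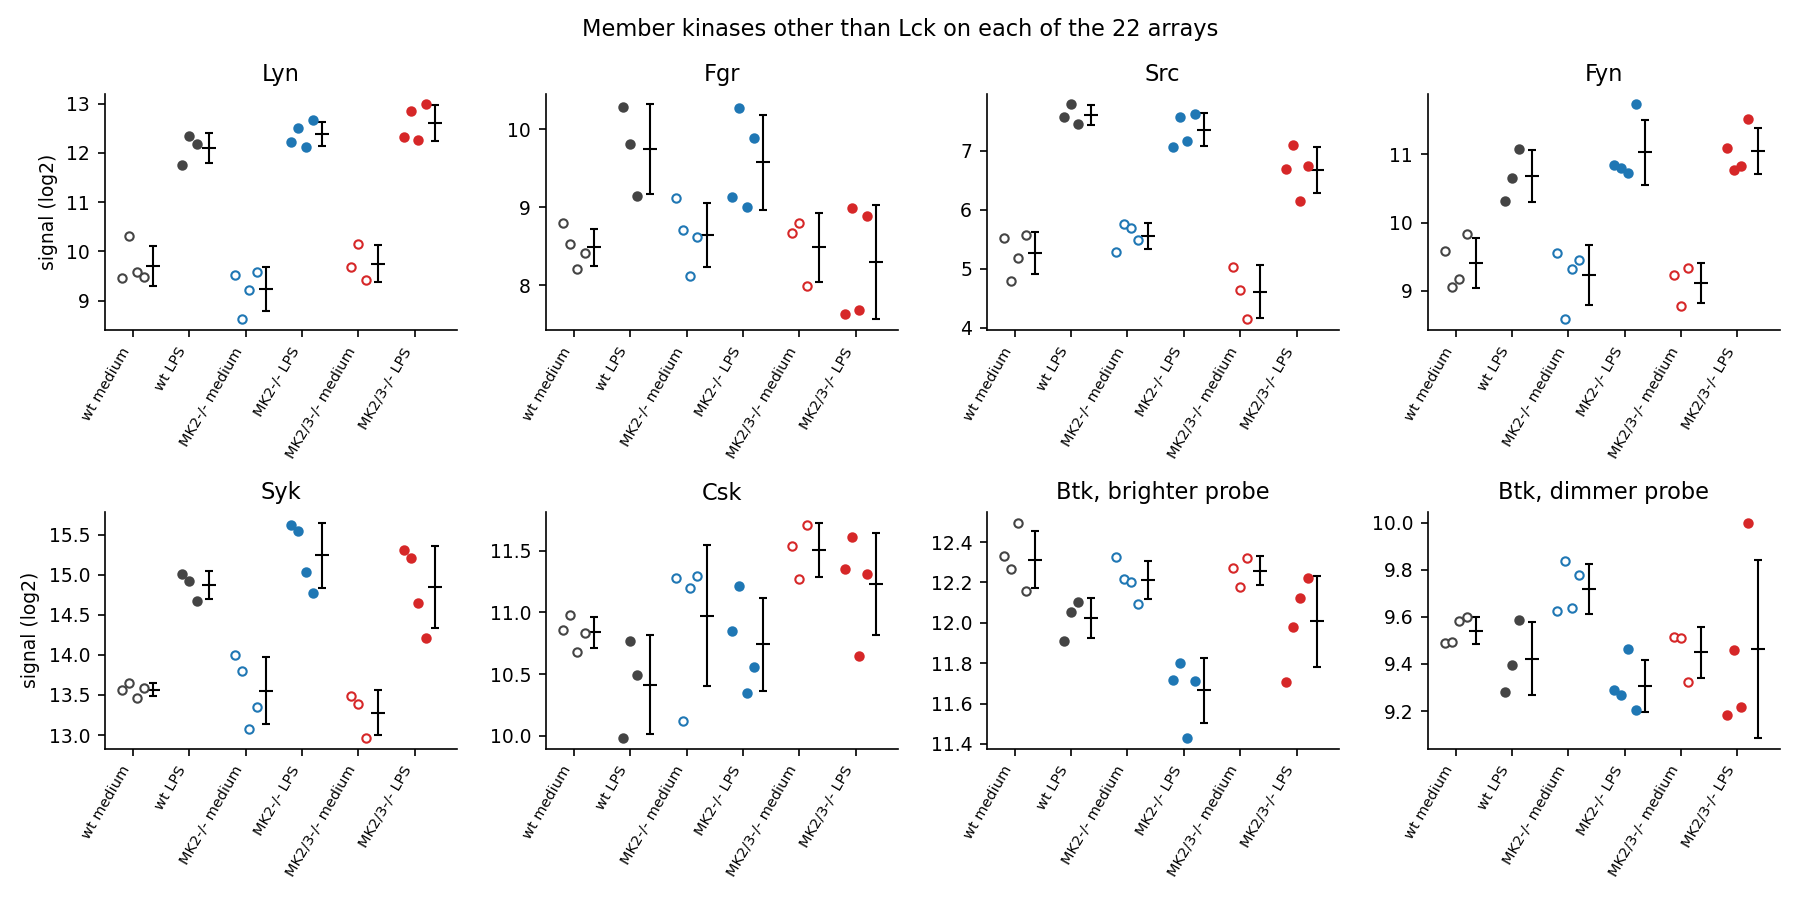
Log2 signal (y axes, each with its own range) of Lyn, Fgr, Src, Fyn, Syk, Csk and both Btk probes on each array, by genotype and treatment (x axes). Open circles are medium, filled circles LPS, and black bars give mean and SD. For Lyn, Src, Fyn and Syk the filled circles lie above the open ones in all 3 genotypes, whereas for Fgr in MK2/3-/- BMDM they overlap.

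**Figure D3:**
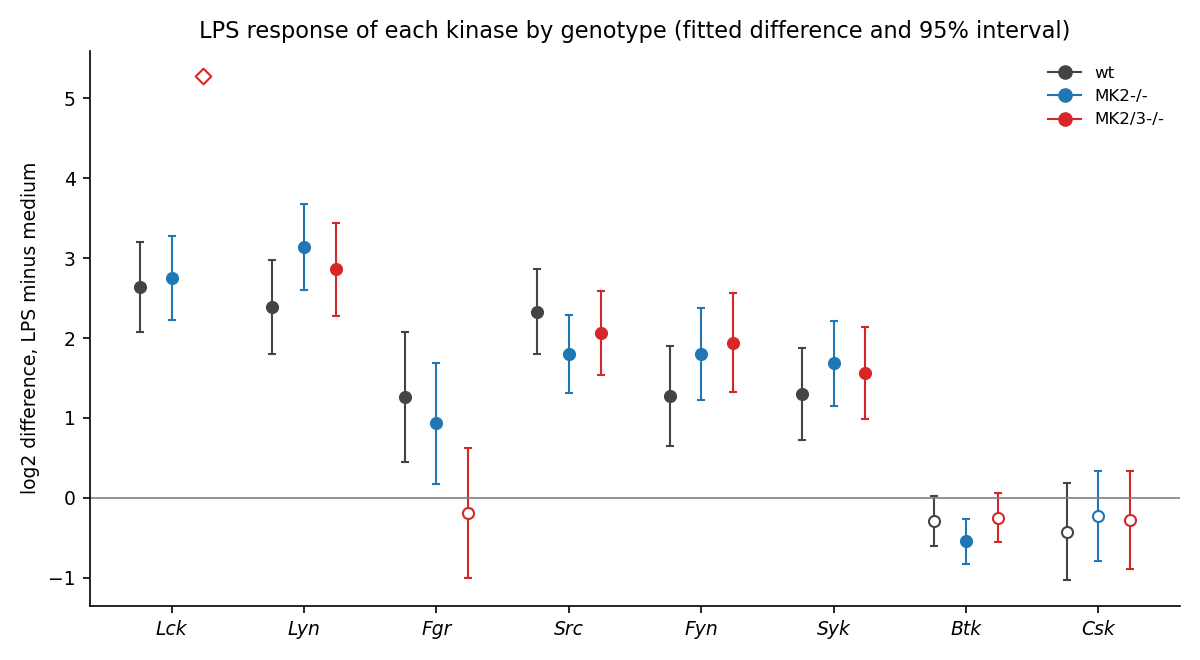
Fitted log2 difference of LPS minus medium (y axis) for each tested member (x axis) by genotype, with 95% intervals from limma. Filled circles were called, open circles were not, and the open diamond is the untested Lck value of 5.28 in MK2/3-/- BMDM, drawn without an interval. Lyn, Src, Fyn and Syk are filled in all genotypes.

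When each array was scaled to its 75th percentile instead of quantile normalised, the median difference of all genes in the LPS comparisons moved to 0.25, 0.26 and 0.24. The share of called genes that were higher moved from 44.5% to 58.0% in wt, from 39.9% to 52.3% in MK2-/- and from 42.4% to 51.9% in MK2/3-/- BMDM. On that scale Lck rose by 2.97 in wt and 2.74 in MK2-/- BMDM, and Lyn, Src, Fyn and Syk rose by 1.36 to 3.19 in the 3 genotypes, above the shift of all genes. The fall of Btk in MK2-/- BMDM became -0.32 (limma adjusted p = 0.135), and was then not called.

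Between genotypes under LPS, Fgr was called lower in MK2/3-/- BMDM than in wt and MK2-/- BMDM, and Src was called lower only against wt. Limma called 2 of the 7 members lower and 0 higher in MK2/3-/- against wt BMDM, beside the 23.7% of all genes called, 9.4% higher and 14.3% lower. Fgr was lower by -1.45 (SE 0.39, 2.73-fold, limma adjusted p = 0.0118), and Src by -0.93 (SE 0.25, 1.90-fold, limma adjusted p = 0.0125). The LPS-treated arrays of these genotypes did not overlap for either gene. Csk was 0.81 higher (SE 0.29, limma adjusted p = 0.0502) and was not called. It read 10.64 to 11.61 in LPS-treated MK2/3-/- BMDM and 9.98 to 10.77 in LPS-treated wt BMDM, overlapping at the lowest array of the former. The Csk value passed the threshold in 9 of 38 alternatives, among them leaving out LPS-treated MK2-/- replicate 3 (adjusted p = 0.0479). The calls of Fgr and Src were lost when the model held only the arrays compared, at adjusted p = 0.0916 and 0.0758, and that of Src under 75th percentile scaling, where it was -0.48. Without LPS-treated wt replicate 1 Fgr was -1.18 (adjusted p = 0.0725), and without LPS-treated wt replicate 2 Src was -0.84 (adjusted p = 0.0510). In medium, the difference of Src from wt was -0.65 and was not called (limma adjusted p = 0.184).

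Against MK2-/- BMDM under LPS, 1 of the 7 members was lower in MK2/3-/- BMDM and 0 were higher, against 13.8% of all genes called, 7.72% higher and 6.04% lower. This was Fgr, at -1.28 (SE 0.36, 2.42-fold, limma adjusted p = 0.0243), with no overlap of the arrays, the closest of which read 8.99 and 9.01. The call was lost in 7 of 38 alternatives, including the model of only the arrays compared (adjusted p = 0.128) and leaving out replicate 2 or 4 of LPS-treated MK2-/- or replicate 1 or 3 of LPS-treated MK2/3-/- BMDM, over which it lay between -1.04 and -1.17. Src was -0.69 (SE 0.23, limma adjusted p = 0.0571), with a 95% interval of -1.17 to -0.20.

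MK2-/- and wt BMDM under LPS showed 0 of the 7 members called, against 11.6% of all genes, 4.5% higher and 7.11% lower. At an unadjusted p below 0.05 limma gave 1 member, Btk, at -0.36 (adjusted p = 0.114), and the methods' t-test also gave 1. The differences of Lyn, Fyn and Syk were 0.28 (95% interval -0.30 to 0.87), 0.34 (-0.28 to 0.97) and 0.37 (-0.20 to 0.95).

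In medium, limma called 0 of 7 members in MK2-/- against wt BMDM, beside 8.57% of all genes, 5.38% higher and 3.19% lower, and 0 members had an unadjusted p below 0.05, by limma or by the methods' t-test. It called 0 of 7 in MK2/3-/- against wt BMDM, beside 1.95% of all genes, 1.4% higher and 0.554% lower, where 2 members, Src and Csk, had an unadjusted p below 0.05 in limma and 1 in the methods' t-test. Src was -0.65 there (limma adjusted p = 0.184) and Csk 0.67 (limma adjusted p = 0.248). In MK2/3-/- against MK2-/- BMDM, 1 member was called, Src at -0.94 (SE 0.25, 1.92-fold, limma adjusted p = 0.0493), beside 2.82% of all genes called, 1.99% higher and 0.827% lower. That call was lost in 28 of 38 alternatives, among them 18 of the 22 fits that left out 1 array, and it ranged from -1.16 to -0.34. Without both arrays of low Y-linked signal it was -0.90 (adjusted p = 0.132), and without LPS-treated MK2-/- replicate 3 or medium-treated wt replicate 4 alone the adjusted p was 0.0521 and 0.0551. Src in medium read 4.14, 4.65 and 5.04 in MK2/3-/- and 5.28 to 5.76 in MK2-/- BMDM.

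With 75th percentile scaling, the share of called genes that were higher moved from 38.8% to 60.1% for MK2-/- against wt under LPS, from 39.7% to 53.3% for MK2/3-/- against wt and from 56.1% to 66.1% for MK2/3-/- against MK2-/-. In medium it moved from 62.8% to 77.9%, from 71.6% to 84.7% and from 70.7% to 89.1%. Fgr stayed lower in MK2/3-/- BMDM under LPS on that scale and was called in both comparisons.

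**Figure D4:**
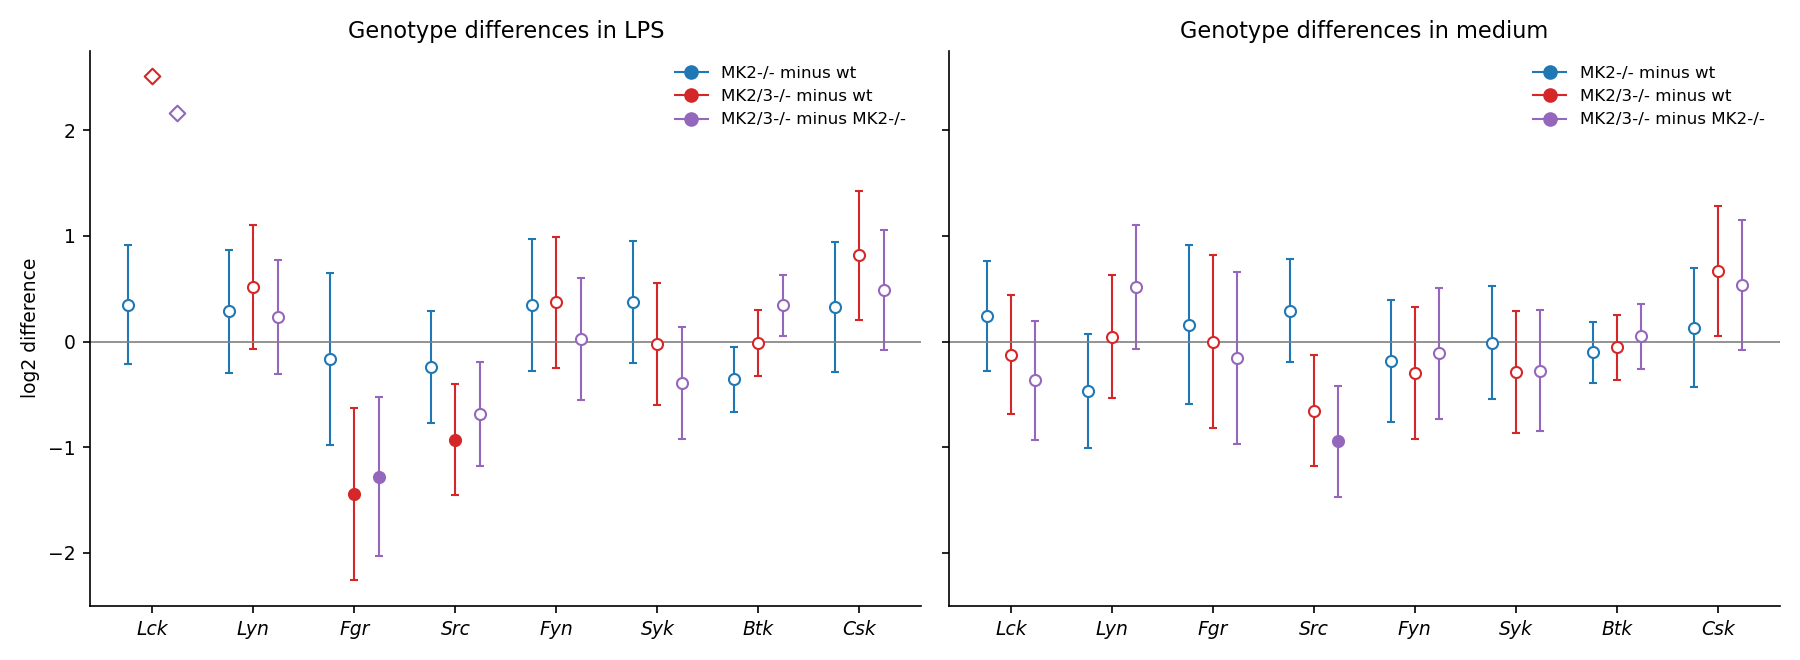
Fitted log2 differences between genotypes (y axis) for each tested member (x axis) under LPS (left) and in medium (right), with 95% intervals from limma. Filled circles were called, and the open diamonds are the untested Lck values of 2.51 and 2.16, drawn without intervals. Under LPS, Fgr and Src are below 0 in MK2/3-/- BMDM.

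The LPS response itself was compared between genotypes with the interaction term, in which an additive effect of the slide cancels. Limma called 0 of 7 members for MK2-/- against wt (0% of all genes called, 0 members with an unadjusted p below 0.05), 0 of 7 for MK2/3-/- against wt (0.652% of all genes, 0.116% higher and 0.536% lower, 1 member) and 0 of 7 for MK2/3-/- against MK2-/- BMDM (0.0536% of all genes, 0.0223% higher and 0.0313% lower, 1 member). The methods' t-test has no form for this comparison. The member with an unadjusted p below 0.05 was Fgr in both cases. Its LPS response was lower in MK2/3-/- than in wt BMDM by -1.45 (SE 0.55, 95% interval -2.60 to -0.30, limma adjusted p = 0.277) and than in MK2-/- BMDM by -1.12 (SE 0.53, 95% interval -2.23 to -0.01, limma adjusted p = 0.569). Fgr was thus called for LPS in wt and MK2-/- but not in MK2/3-/- BMDM, while no difference in its response passed the threshold.

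The other kinases of these families, and the lists that follow, are to be read against the 41.8%, 44.4% and 47.8% of all genes called with LPS in wt, MK2-/- and MK2/3-/- BMDM. Among 5 tested Src-family and Src-related kinases, 2 rose and 1 fell in wt, 1 rose and 2 fell in MK2-/-, and 2 rose and 2 fell in MK2/3-/- BMDM, with medians of 0.41, 0.37 and 0.41. Matk, a kinase related to Csk, fell, with differences of -1.53, -1.51 and -1.40. Frk, a distant relative of the family, was not well above background on any LPS-treated array of MK2-/- or MK2/3-/- BMDM. In MK2/3-/- BMDM it fell at least 2.89-fold with LPS (limma adjusted p = 0.000605). Its other calls rest on groups in which 1 array was well above background. Blk, the Src-family kinase of B cells, was 1.03 higher in medium-treated MK2-/- than wt BMDM. Its mean in medium was 6.03 in wt, 7.06 in MK2-/- and 7.02 in MK2/3-/- BMDM, so both deleted genotypes read alike.

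Of the 5 other SYK- and TEC-family kinases, 2 rose and 1 fell in wt, 1 rose and 1 fell in MK2-/-, and 2 rose and 0 fell in MK2/3-/- BMDM, with medians of 0.33, 0.19 and 0.59. Txk, a TEC-family kinase of T cells, was well above background on all LPS-treated arrays, on 2 of the 4 medium-treated wt arrays and on none of the other medium arrays. It rose at least 5.09-fold in MK2-/- (limma adjusted p = 9.07e-06) and at least 11.6-fold in MK2/3-/- BMDM (limma adjusted p = 4.00e-06), and was also called in wt BMDM (limma adjusted p = 0.000453). Tec fell in wt (-1.29) and MK2-/- BMDM (-1.69), and its LPS difference was 0.08 in MK2/3-/- BMDM (limma adjusted p = 0.884). Of these 5 kinases, limma called 0 for a difference in LPS response between genotypes, beside the 0%, 0.652% and 0.0536% of all genes given above. Under LPS, Tec was higher in MK2/3-/- than in wt BMDM by 1.29 (limma adjusted p = 0.0137) and than in MK2-/- BMDM by 1.90 (limma adjusted p = 0.000854). Zap70, which Lck activates in T cells, rose with LPS by 0.60 in wt (limma adjusted p = 0.0119) and 0.80 in MK2/3-/- BMDM (limma adjusted p = 0.00109), and gave 0.33 in MK2-/- BMDM (limma adjusted p = 0.127). It was higher than in wt in LPS-treated MK2/3-/- BMDM by 0.72 (limma adjusted p = 0.00838) and in medium-treated MK2-/- BMDM by 0.82 (limma adjusted p = 0.00804).

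Genes listed as brakes, adaptors and phosphatases around Src-family kinases, not all of which act on these kinases themselves, changed in both directions with LPS. Of 21 tested, 5 rose and 8 fell in wt, 7 rose and 7 fell in MK2-/-, and 4 rose and 8 fell in MK2/3-/- BMDM. Of all genes, 18.6%, 17.7% and 20.3% rose and 23.2%, 26.7% and 27.5% fell. The median LPS difference of the list was -0.67, -0.17 and -0.54. Inpp5d, the lipid phosphatase SHIP1, fell, with differences of -4.67 in wt (SE 0.36, limma adjusted p = 8.93e-09), -5.44 in MK2-/- and -5.80 in MK2/3-/- BMDM. Unc119, an adaptor that can activate Src-family kinases, fell, with differences of -2.20, -2.61 and -2.70. The phosphatase gene Ptpra fell, with differences of -1.69 in wt, -1.86 in MK2-/- and -2.25 in MK2/3-/- BMDM. Ptpn18, another phosphatase gene, fell likewise, with -1.80, -1.92 and -1.95. The receptor phosphatase gene Ptprj rose by 1.84 in wt, 2.08 in MK2-/- and 1.1 in MK2/3-/- BMDM.

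Sla encodes SLAP, an adaptor that lowers T cell receptor signalling. It rose by 1.85 in wt and 1.77 in MK2-/- BMDM, and its LPS difference was -0.12 in MK2/3-/- BMDM (limma adjusted p = 0.822). Under LPS, Sla read 9.58 to 11.40 in MK2/3-/- BMDM and 12.27 to 12.83 in wt, a difference of -2.03 (SE 0.37, limma adjusted p = 0.00101). Against MK2-/- BMDM it was -2.10 (SE 0.34, limma adjusted p = 0.000541). The difference in LPS response from wt was -1.97 and was not called (limma adjusted p = 0.0877). Dok3, an inhibitory adaptor, and the phosphatase gene Ptpn1 were also lower in LPS-treated MK2/3-/- BMDM, by -1.52 and -1.34 against wt and by -1.33 and -1.32 against MK2-/-. In all, 1 of the 21 was higher and 3 were lower against wt, beside 9.4% and 14.3% of all genes. Against MK2-/- BMDM 0 were higher and 6 lower, beside 7.72% and 6.04% of all genes, with a median of -0.10 for the list and -0.07 for all genes. With 75th percentile scaling, 8 instead of 4 genes of this list were called against wt.

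Receptors and signalling chains that use these kinases also changed in both directions. Of 21 tested, 8 rose and 4 fell in wt, 9 rose and 5 fell in MK2-/-, and 9 rose and 6 fell in MK2/3-/- BMDM, beside the same shares of all genes, with medians of 0.17, 0.52 and 0.63. Clec4e, the Mincle receptor, rose by 4.26, 4.89 and 4.76 in wt, MK2-/- and MK2/3-/- BMDM. Fcgr2b, the inhibitory Fc receptor, rose by 4.46, 4.27 and 3.55, and the activating Fc receptor gene Fcgr4 by 3.86, 3.39 and 4.10. Trem2, a receptor that signals through DAP12, fell, with differences of -2.51, -1.56 and -1.79. Itgal, the alpha chain of the integrin LFA-1, was higher under LPS in MK2-/- (1.09) and MK2/3-/- BMDM (1.41) than in wt. Oscar, an ITAM-coupled receptor, was higher in MK2/3-/- than in MK2-/- BMDM, by 2.19 under LPS and 1.86 in medium.

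Among 29 substrates and downstream effectors, 9 rose and 6 fell in wt, 10 rose and 7 fell in MK2-/-, and 9 rose and 9 fell in MK2/3-/- BMDM, with medians of -0.07, 0.29 and 0.03. The number called, 15, 17 and 18 of 29, stands beside 41.8%, 44.4% and 47.8% of all genes. Rasgrp1, a Ras activator, rose at least 126-fold in MK2-/- BMDM (limma adjusted p = 6.83e-08), where no medium array was well above background, and was called in wt and MK2/3-/- BMDM, where 2 of 4 and 2 of 3 medium arrays were. The paracaspase gene Malt1 rose by 4.28, 5.27 and 4.30, and Lcp2, which encodes the adaptor SLP-76, by 3.84, 4.13 and 3.61. The adaptor gene Lat2 fell, with differences of -3.22, -3.45 and -3.47, as did the transcription factor gene Nfatc1, with -2.58, -3.21 and -2.25. Vav1, an exchange factor that Syk and Src-family kinases phosphorylate, fell in MK2-/- (-1.41) and MK2/3-/- BMDM (-2.01) and gave -0.44 in wt (limma adjusted p = 0.111). Its LPS response was lower in MK2/3-/- than in wt BMDM by -1.56 (SE 0.31, limma adjusted p = 0.0337). This was the 1 call in this list for a difference in response, beside 0.652% of all genes in that comparison. With 75th percentile scaling this list had 0 such calls.

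**Figure D5:**
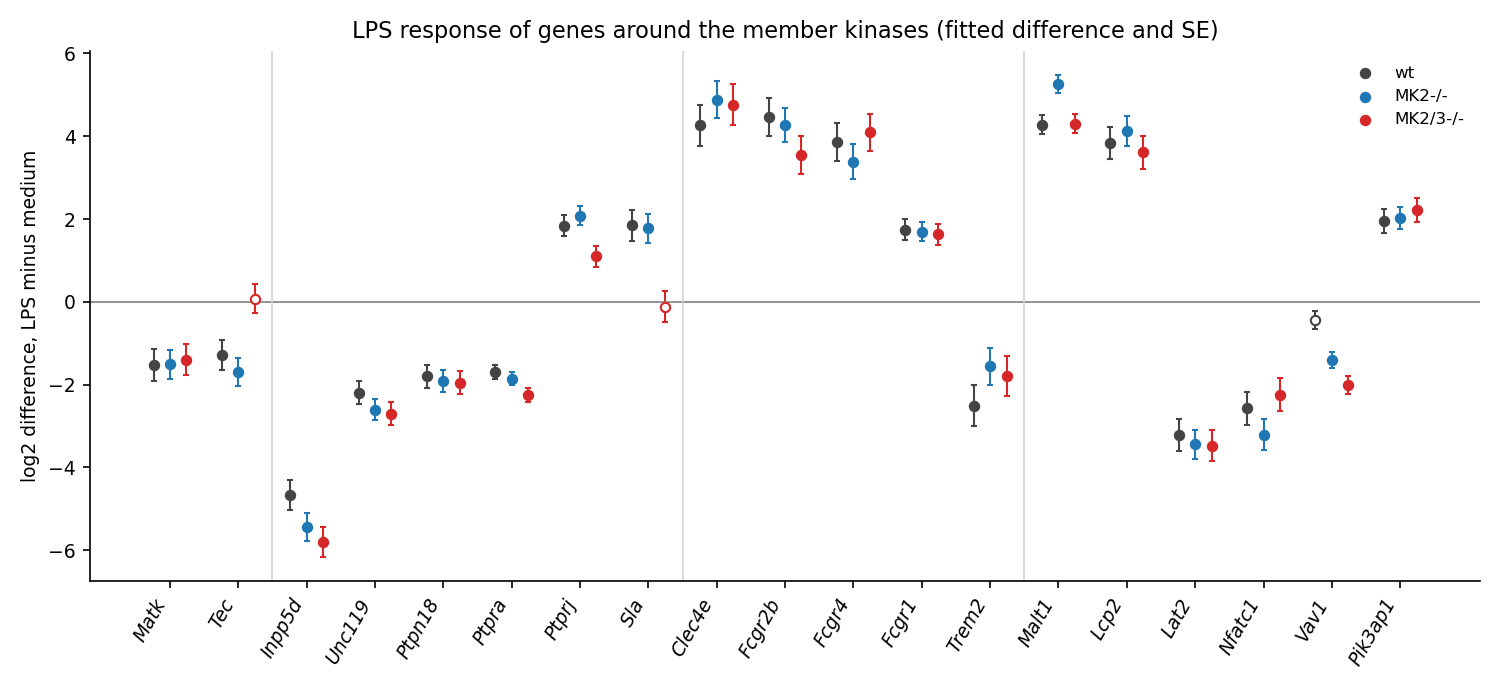
Fitted log2 difference of LPS minus medium (y axis) with its SE for 19 genes around the member kinases (x axis) in wt, MK2-/- and MK2/3-/- BMDM. Filled circles were called by limma and grey lines separate kinases, the listed brakes, adaptors and phosphatases, receptors and effectors. Ptprj, Malt1 and Lcp2 are above 0 and Inpp5d, Unc119 and Lat2 below 0 in all genotypes. Tec and Sla are near 0 in MK2/3-/- BMDM, but neither was called for a difference in LPS response between genotypes.

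The genes whose signal followed Lck most closely over the 22 arrays were Zbtb5 (r = 0.975), Mab21l3 (r = 0.974), Mcur1 (r = 0.967), Olfr560 (r = 0.967), Spsb1 (r = 0.967), a gene without a symbol here (r = 0.966), Armcx6 (r = 0.966), Hk3 (r = 0.965), Il12a (r = 0.964) and Cdh15 (r = 0.964). The arrays share the treatment, the slides and the normalisation, so the correlations describe a common pattern and have no p. Because they were chosen by this likeness, their own LPS differences only describe it. Il12a, which encodes a subunit of interleukin 12, was not well above background on any medium array. Armcx6 had differences of 1.69 in wt, 2.53 in MK2-/- and 4.54 in MK2/3-/- BMDM, and the hexokinase gene Hk3 had 1.48, 1.57 and 2.68. Of the members, Lyn followed Lck with r = 0.904, Fyn with 0.890, Syk with 0.788 and Src with 0.753. Fgr (0.165) and Csk (-0.05) did not follow it, and Btk ran against it (-0.58).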

How the data were processed

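RNA of 22 mouse macrophage cultures was hybridised by the authors to Agilent 1-colour arrays. The deposited scanner files give background-corrected processed intensities of 62976 spots (Feature Extraction 11.0.1.1), which are not normalised between arrays. The authors' own log2 values, quantile normalised and centred on the median over samples, served as an alternative only.

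Here, 3671 control spots were left out, spots marked as outliers were set to missing, and no spot was saturated. Spots of a probe were averaged and log2 processed intensities quantile normalised over 22 arrays. The filter retained 28103 probes that carried an NCBI accession and reached well above background on 3 or more arrays. Of several probes for a gene the one of highest mean was used, which left 22383 genes. Of 29150 RefSeq probes, 27509 were named through RefSeq genes of GRCm38.p6, whose promoters were also used. The array design is annotated on mm9, so no probe coordinates are given. Arrays were grouped by the labels of their samples.

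Tests used limma (version 3.58.1, under R 4.3.3), with 1 mean per group over all arrays, two-sided, and Benjamini-Hochberg adjustment over 22383 genes. Counts leave out Lck, which was not tested in comparisons with LPS-treated MK2/3-/- arrays. Precision is limited by 3 or 4 arrays a group. The steps were tested on simulated data. The members, gene lists and tests were chosen with earlier results of these data known. All members were named, and of each list at most 6 called genes per comparison with a difference of at least 1, in order of size, plus the 10 genes most correlated with Lck. Further genes were named after their values were seen: Cd3e, Cd3d, Cd3g and Zap70. Alternatives covered scaling, background correction, filters, probe choice, arrays included, replicate blocks and the methods' t-test, and one that left out 3 arrays together was added after seeing the data. The figures were drawn with Python and matplotlib.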

Additional observations from a re-analysis of the deposited data

Results flagged for a closer look

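In 40 groups of 4 arrays, each a member probe in 1 group, 4 single arrays stood apart from the other 3 by more than Dixon's 95% limit, and chance gives this in about 5% of groups. Lyn read 10.32 in medium-treated wt replicate 2, against 9.57 on the nearest array. Fyn read 11.74 in LPS-treated MK2-/- replicate 4, against 10.85. Csk read 10.12 in medium-treated MK2-/- replicate 2, against 11.20. Yes1 read 3.69 in LPS-treated MK2-/- replicate 4, against 2.03, with none of these arrays well above background. The LPS calls of Lyn and Fyn held without these arrays.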

How the results depend on the processing

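The counts of members called in the LPS comparisons stayed at 4 to 6 in all alternatives. For MK2-/- against wt in LPS, the count of 0 became 1 (Btk) with 75th percentile scaling, normexp background correction, array weights and the unadjusted methods' t-test. For MK2/3-/- against wt in LPS, the count of 2 became 1 with 75th percentile scaling or a 2-fold minimum, 0 with only the groups compared or the adjusted t-test, and 3, with Csk, under normexp correction, probes well above background on all arrays or the unadjusted t-test. Array weights lost Fgr (-1.18, adjusted p = 0.0572) and gained Csk (0.76, adjusted p = 0.0465). The count was 1 to 3 when single arrays were left out. For MK2/3-/- against MK2-/- in LPS, the count of 1 became 2 with normexp correction or probes well above background on all arrays, 3 with the unadjusted t-test, and 0 with only the groups compared, array weights or the adjusted t-test; it was 0 to 2 when single arrays were left out. In medium, MK2-/- against wt gave 1 with 75th percentile scaling, and MK2/3-/- against wt gave 1 with array weights or the unadjusted t-test. MK2/3-/- against MK2-/- in medium gave 0 with 75th percentile scaling, normexp correction, the authors' table, no filter on dim probes, probes well above background on all arrays, outlier spots kept, only the groups compared, the adjusted t-test, a 2-fold minimum, without the low-Y arrays, and without these and wt medium replicate 4, the last chosen after seeing the data. It was 0 to 1 when single arrays were left out. The causes were not tested.

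Signs turned only in uncalled values. Fgr with LPS in MK2/3-/- ranged from -0.44 to 0.034 without single arrays. Btk there was 0.014 with the other probe. Lck in medium, MK2/3-/- against wt, was 0.035 with 75th percentile scaling, 0.016 without the low-Y arrays and wt medium replicate 4 together, and -0.23 to 0.016 without single arrays. The Lck response of MK2-/- against wt was -0.23 with 75th percentile scaling and -0.086 to 0.26 without single arrays.

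With a replicate block within genotype, by number or by letter of the array name, counts were 5, 6 and 4 for LPS, 0, 2 and 1 between genotypes under LPS, and 0, 0 and 1 in medium, with no call changed. LPS and medium arrays of the same number deviated together (r above 0.1) in 7 of 10 pairs and those of the same letter in 7 of 10, against 5 of 30 unlike pairs in each case, so a pairing was not shown for every pair. The t-test could not be run for differences in LPS response. Lists were recomputed under 6 alternatives, in which 63 counts moved by more than 1.5 times and 585 did not. Depth on an array is signal over background, which left Yes1 untested.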

Other observations

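Markers of other cell types of the bone marrow were read on the same arrays. The 9 B cell markers summed to 988 to 1163 in LPS-treated MK2/3-/-, 975 to 1163 in LPS-treated wt and 672 to 920 in LPS-treated MK2-/- BMDM. Cd79b, a chain of the B cell receptor, fell with LPS, with differences of -2.65 in wt, -2.86 in MK2-/- and -2.86 in MK2/3-/- BMDM. The 11 neutrophil and progenitor markers with a probe summed to 6015 to 10100 in LPS-treated MK2/3-/- to 5046 to 6492 in LPS-treated wt and to 3507 to 6819 in LPS-treated MK2-/- BMDM, and to 9845 to 39995 in the medium-treated groups. Within this list the growth factor receptor Kit rose with LPS by 1.49, 2.36 and 1.94 (in medium it was well above background on 3 of 4, 3 of 4 and 1 of 3 arrays), and Cd34 fell, with differences of -2.15, -2.93 and -2.82. The neutrophil protease gene Prtn3 was not well above background on any MK2-/- array, and under LPS it was at least 3.15-fold higher in MK2/3-/- than in MK2-/- BMDM (limma adjusted p = 4.72e-05). Ctsg, another such protease gene, was lower there by -1.36 (limma adjusted p = 0.0130). It was higher in LPS-treated MK2-/- than wt BMDM by 1.36 (limma adjusted p = 0.0254), and was not called between LPS-treated MK2/3-/- and wt BMDM. The part of these cells in the member values was not tested.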
